A study of Mus musculus with 42 samples.

Results

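To describe how the machinery that starts protein synthesis was expressed when the mouse embryo turned on its own genome, the genes of translation initiation factors were examined in the RNA-seq data. All rows whose symbol begins with Eif and a digit from 1 to 6 were taken, pseudogene symbols excluded, which gave 32 of the 15748 rows. The rows cover chromosomes 1 to 11, the last in part, so initiation factor genes elsewhere, some eIF3 subunits among them, are not covered. The study asked how NAD+ synthesis affects embryo development, and embryos were from ICR mice, with 3 embryos per library and 2 libraries per group in 9 groups. Early 2-cell embryos were collected 34 h after hCG (the hormone given to induce ovulation) and were untreated. Late 2-cell embryos at 48 h were controls, labelled untreated, or received FK866 at 0.01 µM, which inhibits the NAD+ salvage enzyme NAMPT, FK866 together with the NAD+ precursor NMN at 10 µM, or the histone deacetylase inhibitor TSA at 10 nM. A further late 2-cell group had the NAD+-dependent deacetylase Sirt1 knocked down by injecting zygotes with siRNA, Trim21 mRNA and a SIRT1 antibody. The injected negative control of the methods (scrambled siRNA and Trim21 mRNA) has no column of its own here, so injection as such and Sirt1 loss cannot be told apart. The 4-cell groups at 58 h were control (labelled untreated), FK866 and FK866+NMN. The methods name DMSO, the solvent of the inhibitors, as the negative control of inhibitor culture, which the labels of the control groups do not mention. The 24 H3K27ac samples of the series were not analysed here.

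Translation starts when eIF2 brings the initiator tRNA to the small ribosomal subunit, eIF3 holds that complex together, and the eIF4 factors bind the cap of the mRNA and recruit it. Kinases that phosphorylate eIF2 and small proteins that block eIF4E hold initiation back. In the first cell cycles of the mouse embryo the mRNAs stored by the oocyte are degraded and replaced by transcripts of the zygotic genome, in a minor wave that begins in the zygote and a major wave in the 2-cell embryo.

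The values were FPKM, reads scaled to the length of the gene and the depth of the library, in 1 column per group, so that levels could be compared between genes. In 7 columns each value was the sum of 2 libraries, which could be separated from the size of a single read, and the library with more reads is called A and the other B. Only 1 library each was seen in the column headed 4-cell-FK866 and in that headed 4-cell-FK866-NMN. The 16 libraries held 3169677 to 10003481 reads, of which 48.1% to 63.0% were in the rows of the table. Of 512 library values of the 32 genes, 510 were recovered, and the exception was Eif1b in early 2-cell embryos. With 2 libraries against 2, an exact permutation test cannot give a two-sided p below 0.333, so no p is given. A gene was called higher or lower when FPKM + 1, as the mean of the libraries, differed more than 2-fold and the libraries of both columns did not overlap, and log2 differences and folds are of FPKM + 1, except that sums over genes, and folds given with an interval or as a lower bound, are of FPKM. The same calls over all genes with at least 1 FPKM in either column are given beside each count.

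The headers of 5 columns disagreed with the tables that accompany the study. In these tables, 84 of 84 genes on the rows had the values of the column headed late-2-cell-TSA as 4-cell control, of the column headed late-2-cell-Sirt1 as 4-cell FK866, and of the column headed 4-cell-con as 4-cell FK866+NMN. For the 3 late 2-cell columns without TSA or Sirt1, 117 or 118 of 118 genes matched their headers. The genes listed for TSA had the listed direction in 1203 of 1203 cases in the column headed 4-cell-FK866, against 546 in the column headed TSA, and those listed for Sirt1 in 773 of 821 cases in the column headed 4-cell-FK866-NMN, against 442 in the column headed Sirt1. Sirt1 itself was at 32.4 and 73.1 FPKM in the 2 libraries of the column headed Sirt1, at 86.6 and 66.2 FPKM in the late 2-cell control, at 7.61 FPKM in the column headed 4-cell-FK866 and at 11.3 FPKM in that headed 4-cell-FK866-NMN. Early 2-cell embryos, which had no knockdown, were at 13.5 and 6.18 FPKM, and the libraries of the remaining columns at 53.3 to 92.3 FPKM. Genes known for the 2-cell stage (Zscan4c, Zscan4d, Zscan4f, Zfp352 and 3 more on the rows) summed to 16.6, 27.7 and 44.5 FPKM in the columns headed TSA, Sirt1 and 4-cell-con, and to 157 to 404 FPKM in the other 6 columns. Oocyte genes (7 on the rows, led by Bcl2l10 or, in the columns headed TSA, Sirt1 and 4-cell-con, by Zp3 or Oas1d) summed to 37.6, 136 and 120 FPKM in those same columns, and to 996 FPKM or more elsewhere. Markers of cumulus or other somatic cells (6 on the rows) summed to at most 5.72 FPKM in any column, with Ptgs2 at 0 in 7 and Ptx3 at 0 in 8 of the 9 columns. Of the sperm markers only Odf2 was on the rows. Odf2 was at 1.74 to 2.47 FPKM in the columns headed TSA, Sirt1 and 4-cell-con, and 16.6 to 79.0 FPKM elsewhere. The 6 genes of the 4-cell and later embryo summed to 49.3 FPKM in early 2-cell embryos and 147 to 312 FPKM elsewhere. Klf4 was the highest of these 6 in every column, at 22.1 FPKM in early 2-cell embryos and 108 to 238 FPKM elsewhere. Outside early 2-cell embryos these sums thus mainly reflect Klf4. Depending on the column, 2 to 5 of the 6 genes reached 1 FPKM. Each column had a gene of this list at 0 (Cdx2, Sox2, Nanog or Fgfr2). The early 2-cell and the first 3 late 2-cell columns are therefore described first, and the 5 others under both names.

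Promoters are shown for genes of the eIF3 complex that were higher in late than in early 2-cell embryos and for a repressor and an Eif4a3 copy that were lower. The 150 bases around each annotated start, from 120 before it to 30 after, come from RefSeq on GRCm38.p6, and capitals mark matches to the motifs named next, on either strand.
Eif3c (chr7:126566337-126566486, minus strand): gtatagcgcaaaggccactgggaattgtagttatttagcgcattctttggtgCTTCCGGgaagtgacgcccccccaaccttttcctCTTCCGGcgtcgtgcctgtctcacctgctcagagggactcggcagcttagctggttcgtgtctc
Eif3g (chr9:20898561-20898710, minus strand): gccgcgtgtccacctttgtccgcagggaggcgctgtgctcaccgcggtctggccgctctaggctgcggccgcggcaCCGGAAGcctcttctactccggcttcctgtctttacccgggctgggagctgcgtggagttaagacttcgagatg
Eif4enif1 (chr11:3202233-3202382, plus strand): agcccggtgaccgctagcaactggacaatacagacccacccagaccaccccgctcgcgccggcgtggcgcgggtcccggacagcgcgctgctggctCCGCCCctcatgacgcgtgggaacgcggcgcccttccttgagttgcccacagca
Eif4a3l1 (chr6:136327419-136327568, plus strand): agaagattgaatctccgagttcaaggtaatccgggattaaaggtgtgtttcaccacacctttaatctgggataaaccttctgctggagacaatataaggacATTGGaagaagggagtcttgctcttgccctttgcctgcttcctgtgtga
The motif CCGGAAG, the letters that ETS factors bind, stood 68 and 34 bases before the start of Eif3c and 44 before that of Eif3g. Over 300 bases per promoter, it was found in 10 of the 25 genes with a promoter in the RefSeq table, or 13 of their 33 promoters, and in 8.86% of all 32851 promoters of that length. The GC box GGGCGG, 24 bases before the start of Eif4enif1, was in 16 of 25 genes (21 of 33 promoters) and 35.7% of all promoters, and CCAAT, 19 bases before the start of Eif4a3l1, in 9 of 25 genes (9 of 33 promoters) and 37.4%. Of the 33 promoters, TATAAA was in 2 (13.6% of all), the NRF1 motif in 1 (0.971%), and the YY1 motif (0.852%) and the CRE TGACGTCA (1.79%) in 0. The 10 genes with CCGGAAG include genes called higher (Eif3c, Eif3g, Eif3m, Eif2b4, Eif4e2), called lower (Eif4enif1) and not called (Eif2ak1, Eif4ebp2, Eif5a2) from early to late 2-cell embryos. Eif1b, also among them, was lower in late embryos but could not be called, since its early value was not separated into libraries. Of all genes, 24.5% were called higher and 27% lower. The matches describe letters only.

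In the late 2-cell control all 32 genes were above 1 FPKM, with a median of 27.1 FPKM, against 7.09 FPKM over all genes at 1 FPKM or more. Eif2b1, the alpha subunit of the exchange factor eIF2B, had the highest level (240 FPKM), followed by Eif3i (143 FPKM), Eif6 (132 FPKM), Eif4e (118 FPKM) and Eif4g2 (113 FPKM). The libraries of this column were 196 and 285 FPKM for Eif2b1 and 149 and 137 FPKM for Eif3i, so these 2 did not overlap, while Eif6, Eif4e and Eif4g2 overlapped with each other. Eif4g3, a scaffold of the cap-binding complex, was lowest at 3.07 FPKM. Early 2-cell embryos had a different order: Eif1b, a paralog of the start codon selection factor eIF1, stood at 726 FPKM, and the repressor Eif4enif1 was at 179 FPKM. The median of the 32 genes was 13.0 FPKM there, and Eif4ebp1 alone was below 1 FPKM.

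**Figure D1:**
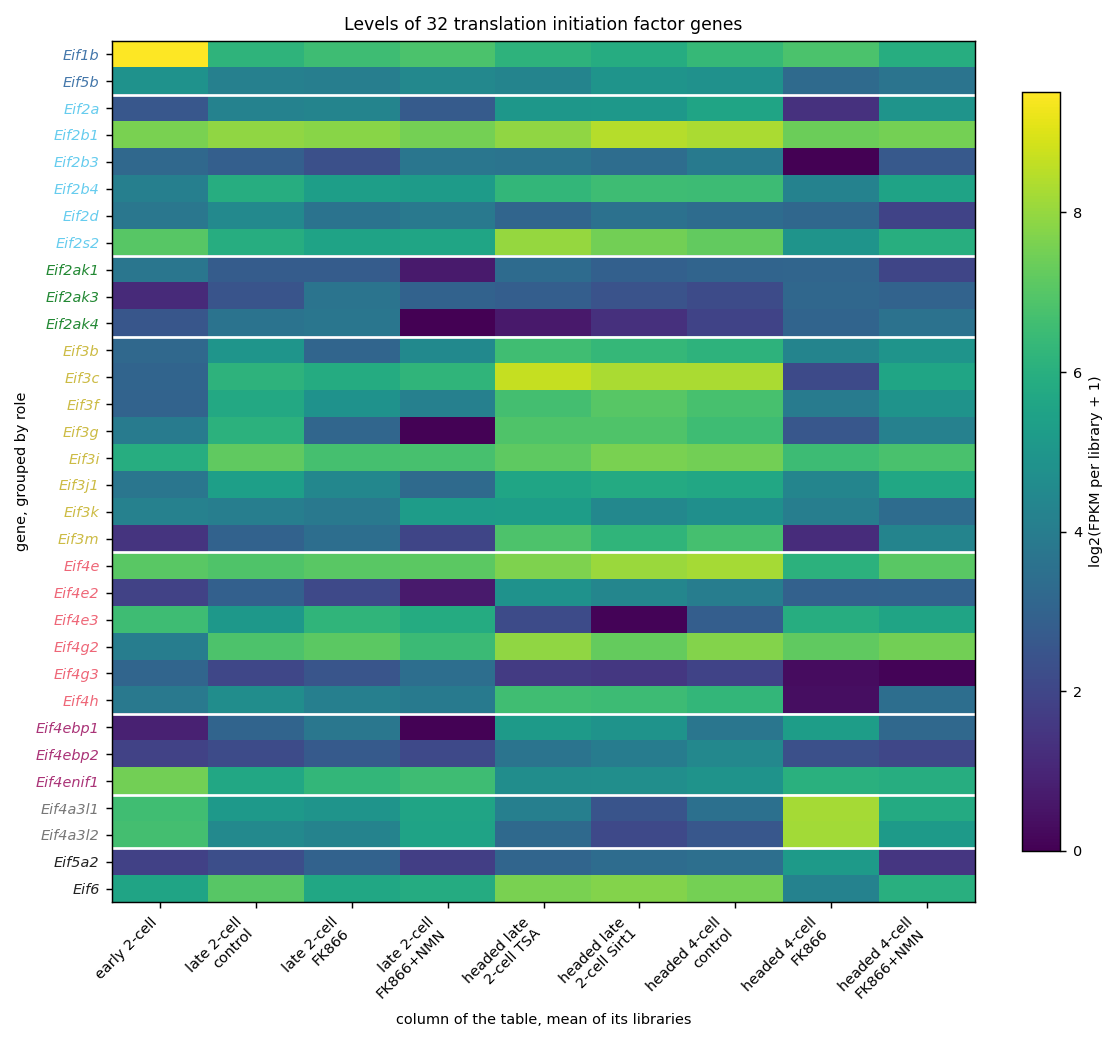
Levels of the 32 genes in the 9 columns, as log2(FPKM per library + 1), with genes grouped by role on the vertical axis and columns named by their headers on the horizontal axis. Eif1b in early 2-cell embryos (726 FPKM) is the brightest cell, and the eIF3 genes are brightest in the columns headed TSA, Sirt1 and 4-cell control.

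From early to late 2-cell control embryos, most measured subunits of eIF3 were higher. Of the 8 subunits on the rows 7 were called higher, and the summed level of the 8 rose 3.31-fold, from 132 and 125 FPKM in the early libraries to 421 and 429 FPKM in the late ones. Over all 32 genes, 15 had risen past 2-fold and 7 had fallen past it, where 32.2% and 31.7% of all 9514 genes had. Of the 31 genes with separated libraries, 14 were called higher and 6 lower, where 24.5% and 27% of all genes were. The median log2 difference was 0.76 for the initiation factors, 0.32 without library B of the late control, and -0.003 for all genes. Libraries held 3 embryos at both times, and FPKM gives shares of the mRNA pool, not molecules per embryo.

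Eif3c (chr7:126546455-126566411), a core subunit of eIF3 with the ETS letters shown above, was at 9.65 and 5.15 FPKM in early and 63.7 and 74.5 FPKM in late 2-cell libraries. It rose 8.35-fold, a log2 difference of 3.06, with 2.60 to 3.62 over the 4 pairs of libraries. Eif3f rose 6.41-fold, from 4.72 and 9.76 to 56.0 and 47.6 FPKM. The RNA-binding subunit Eif3g rose 4.45-fold, from 9.03 and 20.0 to 80.1 and 55.8 FPKM. In all 3 both late libraries lay above both early ones. Eif3j1, a loosely bound subunit, rose 3.12-fold (11.3 and 13.3 to 33.8 and 47.2 FPKM), and Eif3i rose 2.36-fold (71.9 and 48.3 to 149 and 137 FPKM). The scaffold subunit Eif3b was at 10.6 and 5.73 FPKM early and at 12.5 and 47.0 FPKM late. Eif3b therefore rested on 1 late library: its log2 difference of 1.75 fell to 0.55 without library B of the control. Eif3m, at 2.46 and 0.91 FPKM early and 10.8 and 3.15 FPKM late, went from 1.57 to 0.63 without library A, and Eif3i from 1.24 to 0.98 without early library B. Eif3k was the one subunit not called, at 12.1 and 21.7 FPKM early and 14.7 and 16.5 FPKM late. Of the 50-base stretches of Eif3j1, 36.9% also occurred in another gene, 17.2% of those of Eif3m and 7.25% of those of Eif3c, so their reads may be shared with copies.

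The carriers of the initiator tRNA moved in both directions. Eif2b4, the delta subunit of eIF2B, rose 3.57-fold, from 20.1 and 11.9 to 72.5 and 47.0 FPKM. Eif2a, a factor separate from eIF2 that also binds the initiator tRNA, rose 3.11-fold, from 4.75 and 5.07 to 11.7 and 23.1 FPKM. Both late libraries lay above both early ones for these 2 genes. Eif2s2, the beta subunit of eIF2 itself, was 2.18-fold lower, at 107 and 152 FPKM early and 77.1 and 40.8 FPKM late, and its log2 difference of -1.12 was -0.74 without late library B and -0.85 without early library B. Other genes held 10.2% of the 50-base stretches of Eif2s2. Eif2b1, Eif2b3 and Eif2d stayed within 2-fold, with log2 differences of 0.31, -0.34 and 0.70.

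Of the eIF2 kinases, which slow initiation under stress, Eif2ak3 (PERK, the sensor of the endoplasmic reticulum) rose 2.55-fold, from 1.47 and 0.86 to 4.55 and 4.50 FPKM. Eif2ak4 (GCN2, the sensor of amino acid shortage) was at 5.87 and 3.90 FPKM early and 6.35 and 16.3 FPKM late. The early library A and late library A of Eif2ak4 nearly touched, and its log2 difference of 1.06 was 0.32 without late library B and 0.84 without early library B. Eif2ak1 (HRI, the heme-regulated kinase) was at 13.3 and 11.0 FPKM early and at 6.57 and 4.91 FPKM late, lower without overlap but 1.95-fold, and was not called.

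Among the cap-binding factors the scaffold Eif4g2 (DAP5), which lacks the eIF4E-binding part of its relatives, rose 6.92-fold, from 13.5 and 17.5 to 143 and 83.4 FPKM. The other scaffold measured, Eif4g3, was lower, at 7.39 and 7.59 FPKM early and 4.50 and 1.63 FPKM late, with a log2 difference of -1.06 that was -0.63 without late library B and -1.69 without late library A. The 3 eIF4E paralogs went separate ways. Eif4e, the main cap-binding protein, was at 134 and 134 FPKM early and 131 and 104 FPKM late. Eif4e3, a divergent paralog, was 2.82-fold lower, from 78.9 and 109 to 33.0 and 32.2 FPKM. Of the 50-base stretches of Eif4e3, 12.3% also occurred in other genes, so its reads may be shared with them. Eif4e2 (4EHP), which binds the cap without recruiting the scaffold, was at 2.89 and 2.41 FPKM early and 3.60 and 9.61 FPKM late. Eif4e thus stayed near its early level while Eif4e3 fell, and the small rise of Eif4e2 (log2 1.06) was 0.33 without late library B and 0.97 without early library B. Eif4h, a cofactor of the eIF4A helicase, was at 12.4 and 14.3 FPKM early and overlapped with the late 12.9 and 36.1 FPKM.

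Eif4enif1 (chr11:3202392-3244588), the eIF4E transporter that is found with stored, repressed mRNA, fell 3.48-fold, from 176 and 182 to 37.6 and 63.9 FPKM. The mTOR-controlled repressors were low: Eif4ebp2 was at 2.94 and 2.35 FPKM early and 4.82 and 2.20 FPKM late. Eif4ebp1 was at 0.65 and 0.98 FPKM early and split in the late control, at 0 and 14.8 FPKM. Both Eif4a3 copies, relatives of the helicase of the exon junction complex, were lower: Eif4a3l2 was at 119 and 82.1 FPKM early and 7.32 and 35.4 FPKM late, and Eif4a3l1 at 117 and 71.5 FPKM and then 16.6 and 51.1 FPKM. Library B was the higher late control library in both copies, and without library A of the control Eif4a3l1 changed from -1.45 to -0.87, and without library B to -2.44, where Eif4a3l2 changed from -2.18 to -3.61. Of the 50-base stretches of Eif4a3l1, 47.5% also occurred in another gene, with 42.9% in Eif4a3l2. For Eif4a3l2 these were 63.4% and, in Eif4a3l1, 51.3%, so the split of reads between the copies is uncertain.

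Eif6, which keeps the large ribosomal subunit from joining too early, rose 2.80-fold, from 51.8 and 41.1 to 126 and 138 FPKM. Eif5b, the GTPase of subunit joining, was at 19.3 and 35.6 FPKM early and 17.8 and 15.5 FPKM late, lower without overlap but within 2-fold. Eif5a2, an eIF5A paralog, was at 1.69 and 3.51 FPKM early and 0 and 7.64 FPKM late, which overlap. Eif1b was 10.1-fold lower in late 2-cell embryos, at 71.9 and 70.6 FPKM. Its early value could not be separated, and the pairs of whole read counts that give it are 643 and 810 FPKM or 217 and 1235 FPKM, each above both late libraries.

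**Figure D2:**
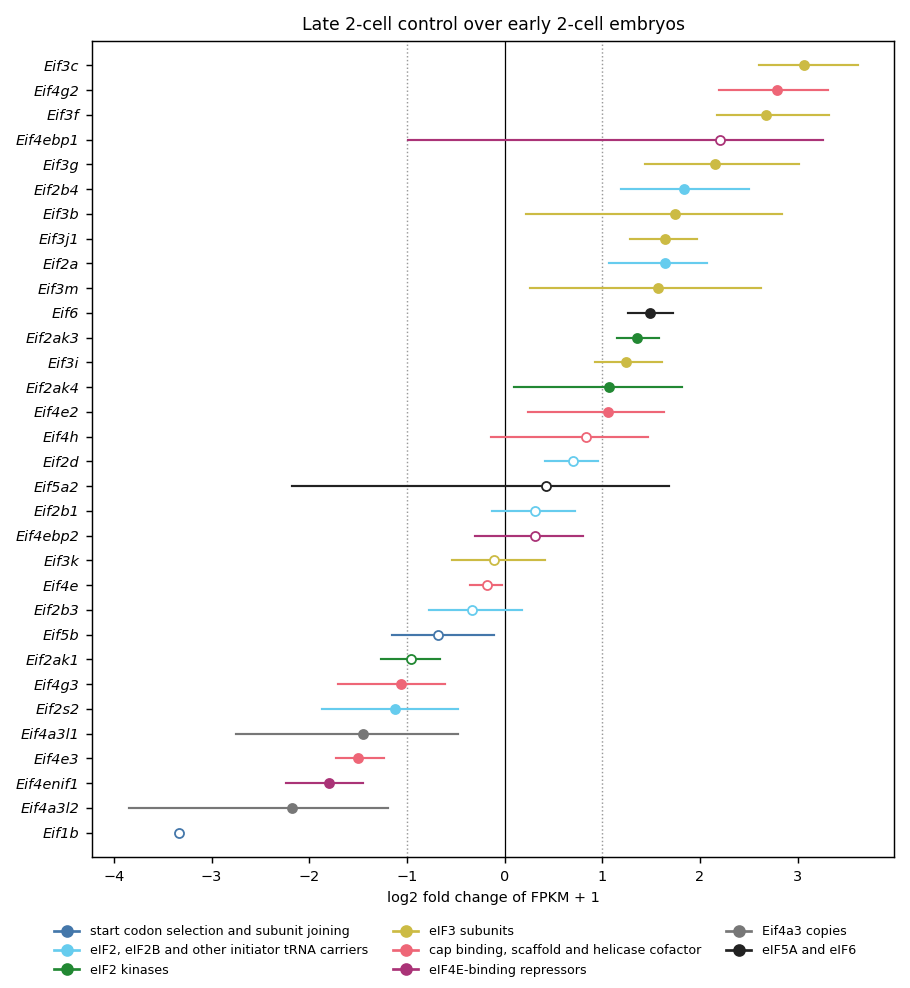
Log2 fold change of FPKM + 1 (horizontal axis) of each gene (vertical axis, colored by role) from early 2-cell to late 2-cell control embryos, where points are column means, bars span the 4 pairs of libraries and filled points are called. Of the eIF3 genes, 7 lie right of the 2-fold line at 1, and Eif4enif1, Eif4e3 and both Eif4a3 copies lie left of that at -1.

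When NAD+ synthesis was blocked with FK866, 27 of 32 initiation factors of late 2-cell embryos stayed within 2-fold of the control. Of the 8 eIF3 genes, 2 were called lower (Eif3g and Eif3b) and none higher. The summed level of the 8 eIF3 genes was 233 and 256 FPKM with FK866 against 421 and 429 FPKM in the control, 1.74-fold lower. Over the 32 genes, 2 were past 2-fold above the control and 3 below it, where 18.1% and 20% of all genes were, and 1 was called higher and 3 lower, where 9.44% and 10.9% were. The shares of called genes (3.12% and 9.38%) were at or below those of all genes, and the median log2 difference was -0.14 against -0.06 for all 9022 genes. Leaving out any 1 of the 4 libraries gave 7 to 12 genes past 2-fold in place of 5. These values and those from early to late 2-cell embryos use the same control libraries.

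Eif3g was the largest change, at 10.4 and 5.08 FPKM with FK866 against 80.1 and 55.8 FPKM in the control. It fell 7.89-fold, a log2 difference of -2.98, with -3.74 to -2.32 over the pairs of libraries, and its level with FK866 lay within that of early 2-cell embryos or below it. Eif6 fell 2.64-fold, to 42.3 and 56.3 from 126 and 138 FPKM, with all 4 pairs between -1.68 and -1.14. Eif3b was at 6.20 and 8.75 FPKM against 12.5 and 47.0 FPKM, and its log2 difference of -1.86 was -0.67 without library B of the control. Eif3j1 (21.8 and 18.1 against 33.8 and 47.2 FPKM), Eif3f (23.1 and 32.1 against 56.0 and 47.6 FPKM), Eif3i (96.9 and 108 against 149 and 137 FPKM) and Eif3c (52.6 and 60.3 against 63.7 and 74.5 FPKM) were within 2-fold of the control. Eif3k (14.7 and 11.7 against 14.7 and 16.5 FPKM) and Eif3m (7.58 and 12.1 against 10.8 and 3.15 FPKM) overlapped with the control or touched it.

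Eif4e3 was the one gene called higher, at 99.7 and 47.9 FPKM with FK866 against 33.0 and 32.2 FPKM, a log2 difference of 1.16 that was 0.54 without FK866 library A. The kinase Eif2ak3 was at 18.6 and 4.37 FPKM against 4.55 and 4.50 FPKM, so that 1 library decided its 2.26-fold difference: without FK866 library A the log2 difference was -0.04. The other kinases stayed near the control, Eif2ak4 at 10.5 and 13.9 FPKM and Eif2ak1 at 8.21 and 3.51 FPKM. Eif4enif1, at 95.4 and 60.5 FPKM, overlapped with the control's 37.6 and 63.9 FPKM. Eif4e (124 and 147 FPKM), Eif4g2 (136 and 139 FPKM) and Eif2b1 (254 and 198 FPKM) also overlapped with the control.

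With NMN added to FK866, Eif3g was lower still: it had 0 reads in library A and 1 read in library B, against 185 and 82 reads with FK866 alone. The level was 164-fold below FK866 alone, with an exact 95% Poisson interval of 29.5 to 6493 from that 1 read. This interval, like all limits from read numbers here, covers counting error only. Eif6 (76.8 and 37.3 FPKM) overlapped with FK866 alone and Eif3b (31.5 and 11.7 FPKM) with the control. Of 32 genes, 4 were past 2-fold above FK866 alone and 9 below it, where 18.9% and 33.3% of all genes were, and 3 were called higher and 8 lower, where 5.7% and 20.6% were. The median was -0.18, near that of all 8605 genes, -0.24.

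The genes called higher over FK866 alone were Eif2b3 (9.71 and 15.0 against 3.11 and 4.96 FPKM), Eif3b and Eif3k (56.4 and 17.3 against 14.7 and 11.7 FPKM). Library A of FK866+NMN carried 2 of these: without it Eif3b went from 1.42 to 0.59 and Eif3k from 1.42 to 0.36. Eif2b3, the gamma subunit of eIF2B, was 2.65-fold higher and stayed past 2-fold, with log2 differences of 1.09 to 1.70, whichever library was left out.

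Genes called lower included the kinases Eif2ak4 and Eif2ak1. Eif2ak4 had 0 reads in both FK866+NMN libraries against 705 and 845 reads with FK866, and 309 and 505 in the control. Taking 3 reads per library as the limit that a count of 0 allows, 0.0614 FPKM, the level was at least 199.5-fold lower than with FK866 and at least 184-fold lower than in the control. Eif2ak1 was at 0 and 1.22 FPKM against 8.21 and 3.51 FPKM, and Eif2ak3 split between 0 and 13.8 FPKM. Library A of FK866+NMN had no read of any of the 3 kinases. Eif2a was at 0 and 11.3 FPKM, Eif4ebp1 at 0.054 and 0 FPKM (1 read, 474-fold below FK866 with an interval of 85.0 to 18705), Eif3m at 5.84 and 0.14 FPKM, and Eif5a2 at 4.86 and 0 FPKM. These zeros came with the widest spread between libraries: the median log2 difference of A and B in the FK866+NMN column was 0.64 for the 32 genes and 1.82 for all genes, against 0.31 to 0.58 and 0.45 to 0.82 in the other 6 columns. What this spread contributes to the calls was not tested. Without library A, Eif2a went from -1.55 to -0.67 and Eif3j1 (4.34 and 13.3 FPKM) from -1.09 to -0.55, and without library B Eif3m went from -1.44 to -0.67. Without library A of FK866, Eif4e2 (0.87 and 0.35 against 4.55 and 1.90 FPKM) went from -1.40 to -0.85 and Eif3j1 to -0.96. Eif4a3l2 and Eif5a2 were past 2-fold with overlapping libraries, at log2 1.27 and -1.22, and leaving out 1 library moved Eif4a3l2 to 0.31 (without FK866+NMN library A) and Eif5a2 to between -3.00 (without FK866+NMN library A) and -0.40 (without FK866 library B).

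Against the untreated control, FK866+NMN embryos had 3 of 32 genes past 2-fold above and 9 below, where 21% and 36.2% of all genes were. Called higher were 2 and called lower 8, where 7.48% and 23.1% were, and the median was -0.42 against -0.35 for all genes. Eif3g was 1443-fold below the control, with an interval of 259 to 56981 from its 1 read. Eif4e2 (0.87 and 0.35 against 3.60 and 9.61 FPKM, log2 -2.24), Eif3j1 (log2 -2.08) and Eif3f (19.6 and 13.4 against 56.0 and 47.6 FPKM, log2 -1.59) were also called lower, with Eif2ak4, Eif2ak1, Eif2a and Eif6. Eif2a barely separated, with 11.3 FPKM in library B against 11.7 FPKM in control library A, and its -1.47 was -0.58 without FK866+NMN library A and -0.93 without control library B. Eif6 changed from -1.19 to -0.77 without FK866+NMN library B. Eif4g3 was called higher (9.95 and 9.77 against 4.50 and 1.63 FPKM, log2 1.42, and 0.98 without control library B), as was Eif3k (log2 1.19, and 0.14 without FK866+NMN library A). Eif4a3l2 and Eif4ebp1 were past 2-fold with overlapping libraries (log2 1.03 and -3.03). Eif3c, Eif4e and Eif2b1 were within 2-fold of the control, at log2 differences of 0.09, 0.22 and -0.39.

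**Figure D3:**
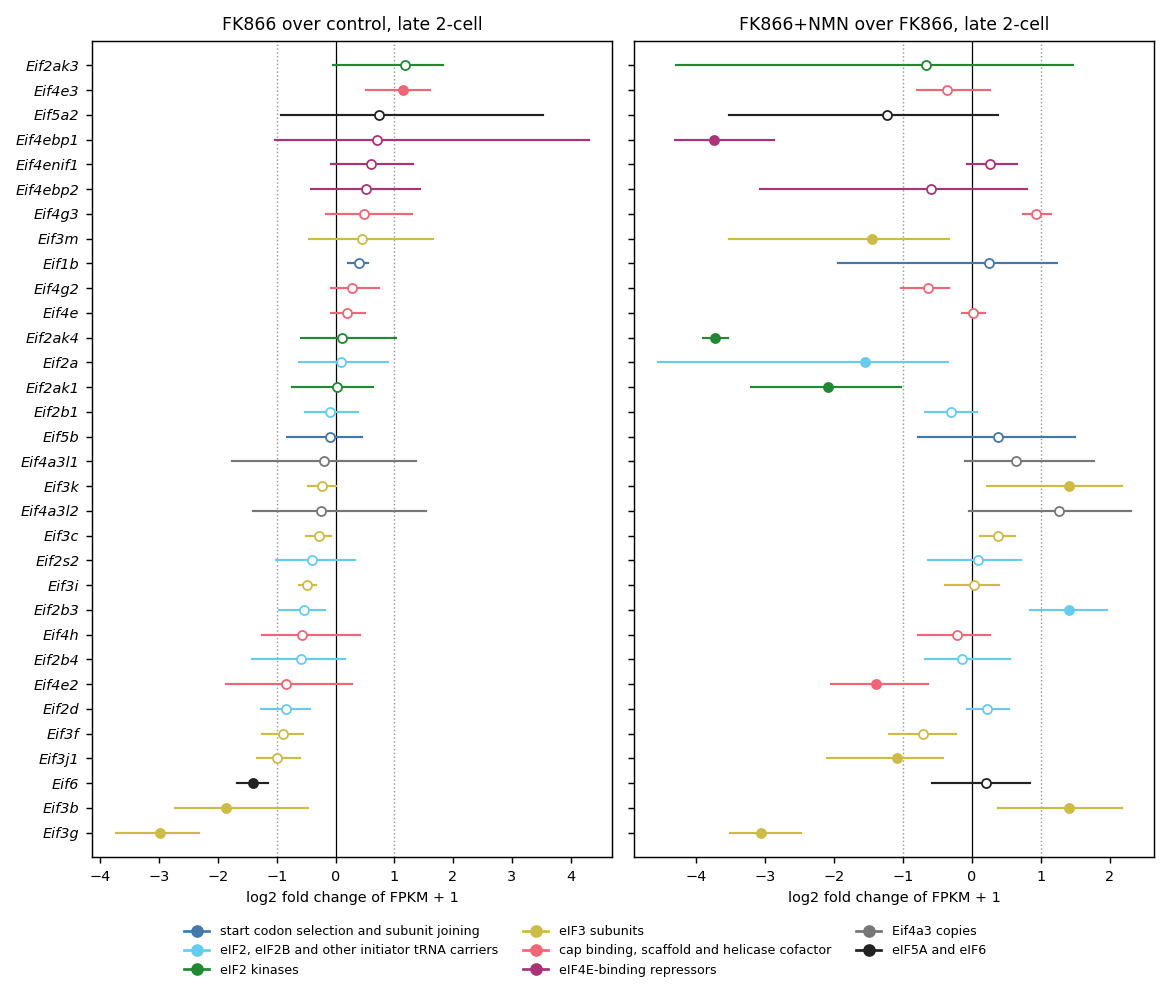
Log2 fold change of FPKM + 1 of each gene in late 2-cell embryos with FK866 over control (left) and with FK866+NMN over FK866 (right), where bars span the pairs of libraries and filled points are called. Eif3g lies at -2.98 on the left and at -3.06 on the right, and Eif3b lies at -1.86 and 1.42.

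Other genes of translation were read from lists of elongation and termination factors (7 of 15 on the rows) and of partners and regulators of initiation (22 of 42 on the rows). From early to late 2-cell embryos 1 and 2 of 7 elongation and termination genes were called higher and lower, and 7 and 5 of 21 tested partners and regulators, where 24.5% and 27% of all genes were. Called higher were Ppp1r15b (0.60 and 1.04 to 26.6 and 33.3 FPKM) and Ppp1r15a (8.88 and 8.65 to 82.9 and 93.8 FPKM), which direct a phosphatase to eIF2 and so oppose its kinases. Of the kinases of eIF4E, Mknk2 rose from 2.37 and 3.54 to 29.7 and 32.5 FPKM and Mknk1 fell from 12.5 and 14.1 to 4.02 and 8.11 FPKM. Denr, which works with Mcts proteins in re-initiation, rose from 3.61 and 4.17 to 34.3 and 26.3 FPKM. Mcts2, Bzw1, Mtor and the recycling factor Abce1 were also called higher. Pabpc1l, the poly(A)-binding protein of oocytes, fell from 101 and 109 to 3.77 and 5.91 FPKM, and Cpeb1, a regulator of stored mRNA, from 20.7 and 29.0 to 7.28 and 3.55 FPKM. Cpeb4, Nck1, Eef2k and Eefsec were also called lower. With FK866 the list of partners and regulators had 1 gene called higher (Cpeb1) and 3 lower (Mcts2, Mtif2, Mtif3) of 21, and elongation and termination had 0 and 0 of 7, where 9.44% and 10.9% of all genes were called. FK866+NMN over FK866 gave 1 (Mtif3) and 3 (Mknk1, Cpeb1, Denr) of 20, and 1 (Eefsec) and 0 of 7, where 5.7% and 20.6% were. FK866+NMN over the control gave 1 and 5 of 20, and 2 and 0 of 7, where 7.48% and 23.1% were.

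For the 5 remaining columns the medians of TSA and Sirt1 over control changed direction with the names used, and the other 3 comparisons kept theirs. The medians were close for late 2-cell to 4-cell control (0.64 and 0.66). They were smaller in size by the tables for FK866 over control and FK866+NMN over FK866 at the 4-cell stage. Of the values of single genes past 2-fold by the headers, 41 had the other sign by the tables. Those past 2-fold by the headers were 17 for late 2-cell to 4-cell control, 16 for TSA and 15 for Sirt1. At the 4-cell stage they were 24 for FK866 over control and 16 for FK866+NMN over FK866. Sign changes of smaller values were not counted. The eIF3 sum was 1115 and 1005 FPKM in the column headed TSA, 990 and 980 FPKM in that headed Sirt1 and 939 and 931 FPKM in that headed 4-cell-con, which the tables call 4-cell control, 4-cell FK866 and 4-cell FK866+NMN. It was 168 FPKM in the column headed 4-cell-FK866 and 308 FPKM in that headed 4-cell-FK866-NMN, which the tables call TSA and Sirt1 of the late 2-cell stage. The Eif4a3 copies summed to 590 FPKM in the column headed 4-cell-FK866 and to 7.80 to 90.0 FPKM in the 4 others.

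**Figure D4:**
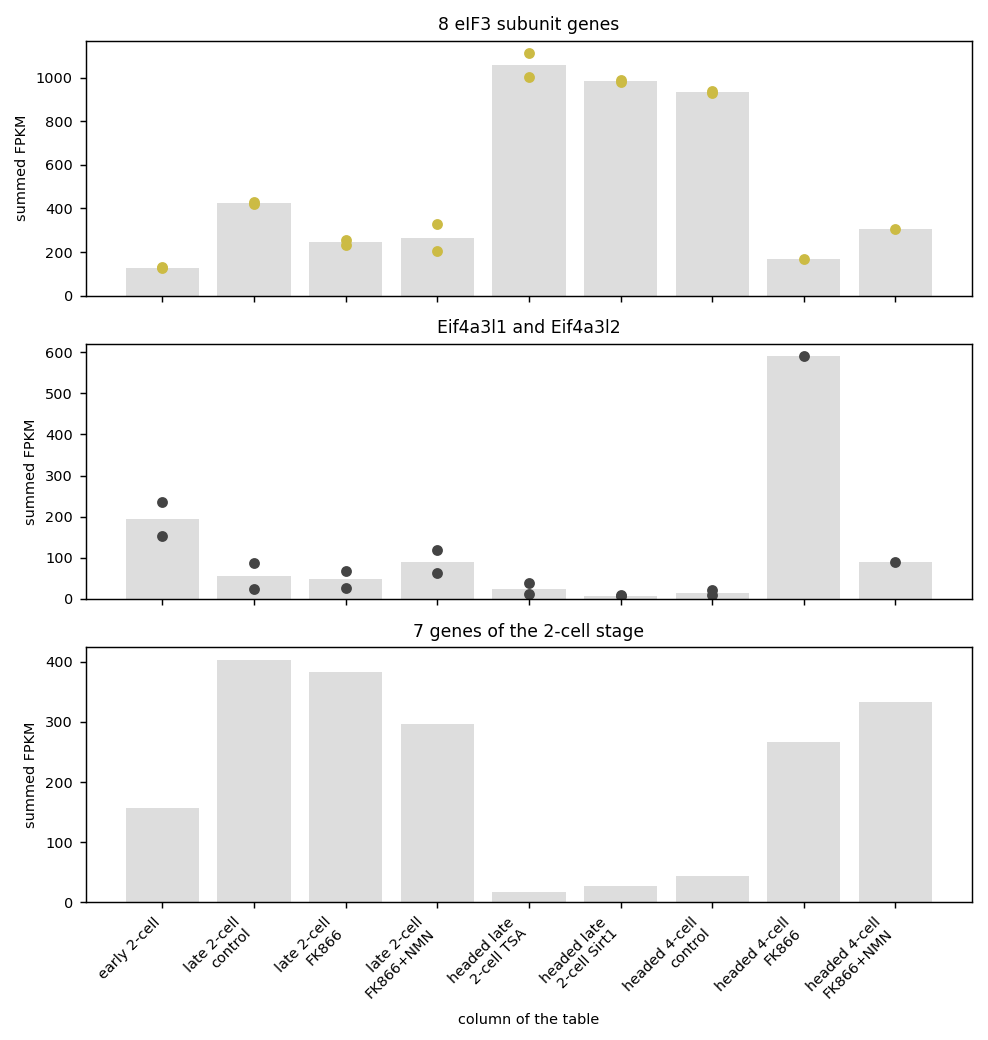
Summed FPKM of the 8 eIF3 genes (top), of Eif4a3l1 and Eif4a3l2 (middle) and of 7 genes of the 2-cell stage (bottom) in each column by its header, where bars are column means and points are libraries. The 3 columns with the highest eIF3 sums (935 to 1060 FPKM) have the lowest 2-cell sums (16.6 to 44.5 FPKM).

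From late 2-cell to 4-cell control, 4 of 8 eIF3 genes were called higher and 0 lower under either naming, and of the 6 cap-binding, scaffold and helicase cofactor genes 3 were called higher and 1 (Eif4e3) lower. By the headers 12 of 32 genes were past 2-fold up and 5 down (24.2% and 33.8% of all genes), all of them called (19.8% and 23.3%). Of these 17 calls 6 stayed past 2-fold whichever library was left out, and without library B of the late 2-cell control 11 genes were past 2-fold. By the names in the tables, 10 were up and 6 down (23.2% and 41.3%), of which 10 and 4 were called (17.7% and 28.1%), and 10 of these 14 calls stayed past 2-fold whichever library was left out. The medians were 0.64 and 0.66 against -0.21 and -0.44 for all genes. Eif3m, from 10.8 and 3.15 FPKM, was at 105 and 102 FPKM by the headers and 153 and 77.3 FPKM by the tables, 13.2-fold and 14.6-fold higher. Eif3c, from 63.7 and 74.5 FPKM, was at 318 and 303 FPKM or at 431 and 376 FPKM, and Eif4h, from 12.9 and 36.1 FPKM, at 75.5 and 81.5 FPKM or at 81.0 and 110 FPKM. Eif4e3 was lower by both, at 8.42 and 3.77 FPKM or at 6.96 and 0 FPKM against 33.0 and 32.2 FPKM. Eif2ak4 was also lower by both, with log2 differences of -1.71, which was -0.97 without control library B of the late 2-cell stage, and -2.96.

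For FK866 against control at the 4-cell stage the difference was large by the headers and small by the tables. By the headers, with 1 library against 2, 7 genes were past 2-fold up and 17 down (41.8% and 32.9% of all genes), all called (41.6% and 29.1%), with a median of -1.20 against 0.42 for all genes. By the names in the tables, 0 were up and 3 down (21.2% and 13.4%), and 0 and 1 were called (12.7% and 7%), with a median of -0.08 against 0.10. The one call by the tables was Eif4a3l1, at 6.42 and 2.61 FPKM against 8.25 and 24.4 FPKM, and its log2 difference of -1.65 was -0.75 without library B of the column headed TSA. By the headers it was 26.1-fold higher. Eif3c was 71.7-fold lower by the headers (3.35 FPKM in 1 library against 318 and 303 FPKM) and 1.28-fold lower by the tables (285 and 344 against 431 and 376 FPKM). Eif3g was 15.7-fold lower by the headers and at 117 and 119 FPKM against 131 and 105 FPKM by the tables.

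For FK866+NMN over FK866 at the 4-cell stage the headers compare 1 library with 1, so that no replicate check exists. There 10 of 31 genes were past 2-fold up and 6 down (25% and 34.7% of all genes). By the names in the tables, 2 were up and 1 down (14.8% and 11.5%), with 1 called in each direction (9.55% and 5.16%). Called higher was Eif4e3, at 8.42 and 3.77 FPKM against 0 and 0.125 FPKM, where the latter is 1 read and gives a 97.2-fold difference with an interval of 17.4 to 3838. Called lower was Eif4ebp1, at 15.1 and 9.71 against 34.5 and 22.1 FPKM, and its log2 difference of -1.13 was -0.86 without library B of the column headed 4-cell-con and -0.78 without library A of that headed Sirt1.

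With TSA, the headers gave 10 of 32 genes past 2-fold above the late 2-cell control and 6 below (23.2% and 41.3% of all genes), with 10 and 4 called (17.7% and 28.1%). The tables gave 4 higher and 13 lower (30.1% and 29.7%), all called (30% and 21.2%), in the single library of the column headed 4-cell-FK866. In that library Eif4h was at 0.27 FPKM against 12.9 and 36.1 FPKM in the control, Eif3c at 3.35 FPKM, Eif3g at 4.95 FPKM and Eif6 at 17.5 FPKM. Their log2 differences were -4.33, -4.01, -3.53 and -2.85. Eif2b3 had 0 reads, at least 64.6-fold below the control. The 4 higher genes were Eif4a3l2 and Eif4a3l1 (294 and 296 FPKM), Eif5a2 (35.0 FPKM) and Eif4ebp1 (38.5 FPKM). Of the eIF3 subunits, 5 were called lower (Eif3c, Eif3f, Eif3g, Eif3j1, Eif3m), while Eif3k was at 15.7 FPKM against 14.7 and 16.5 FPKM. Eif3m (-1.78) was at -0.84 and Eif2s2 (-1.004) at -0.48 without control library A, and Eif3j1 (-1.03) at -0.78 without control library B.

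With Sirt1 knockdown, the headers gave 11 genes past 2-fold up and 4 down (24.3% and 36.6% of all genes), with 9 and 4 called (18.6% and 25.3%). The tables gave 1 higher and 5 lower (16.4% and 28.2%), all called (16.3% and 17.2%), in the single library of the column headed 4-cell-FK866-NMN. Eif2d was at 2.81 FPKM there against 17.9 and 24.1 FPKM in the control, and Eif3g at 17.1 against 80.1 and 55.8 FPKM. Eif4g3, Eif4h and Eif6 were the other genes called lower (log2 -1.93, -1.24 and -1.04), and Eif3m, at 18.3 FPKM, was the one called higher (log2 1.28). Without library B of the control these were -0.37 for Eif4h, -0.97 for Eif6 and 0.72 for Eif3m, so these 3 of the 6 calls rested on that library. By the headers Eif3m was called higher too (log2 3.21), while Eif4e3 had 0 reads and 1 read, 519-fold below the control with an interval of 93.2 to 20513.

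**Figure D5:**
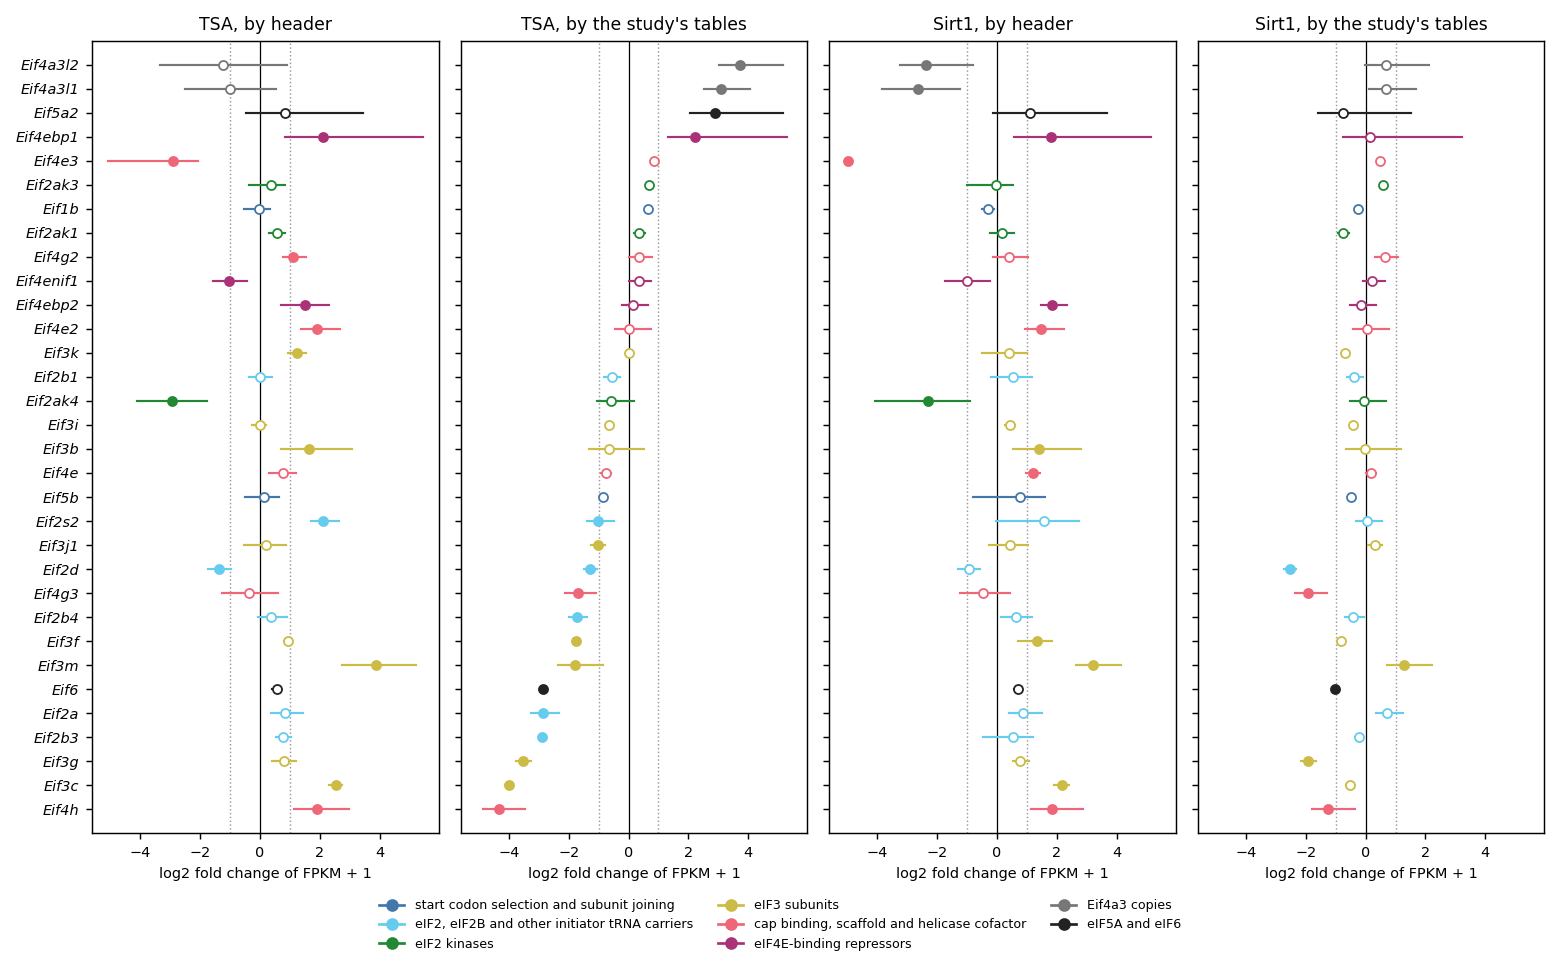
Log2 fold change of FPKM + 1 over the late 2-cell control for TSA and Sirt1, each by the header of the column and by the tables of the study, where bars span the pairs of libraries and filled points are called. Eif4h and Eif3c lie at 1.92 and 2.53 for TSA by the headers and at -4.33 and -4.01 by the tables.

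Values of Eif3g and Eif6, picked from the genes called with FK866 in these same data, are given side by side here. All share the late 2-cell control libraries (80.1 and 55.8 FPKM for Eif3g, 126 and 138 FPKM for Eif6). The other genes called with FK866, Eif3b and Eif4e3, were within 2-fold for TSA and Sirt1 as the tables name the columns. Their log2 differences were -0.67 and -0.019 for Eif3b and 0.85 and 0.47 for Eif4e3. A response shared between treatments was not tested. Eif3g was at 10.4 and 5.08 FPKM with FK866, at 0 and 0.094 FPKM with FK866+NMN, and, as the tables name the columns, at 4.95 FPKM with TSA and 17.1 FPKM with Sirt1 knockdown. Eif6 was at 42.3 and 56.3 FPKM, 76.8 and 37.3 FPKM, 17.5 FPKM and 63.6 FPKM in the same order. By the headers both were higher than these values with TSA and Sirt1 knockdown, Eif3g at 131 and 105 FPKM and at 117 and 119 FPKM, and Eif6 at 181 and 207 FPKM and at 205 and 220 FPKM.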

How the data were processed

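RNA-seq was done on 18 samples in 9 groups, and the authors deposited FPKM values in 1 column per group, made with FastQC, Trim Galore, HISAT2 on mm10, featureCounts and division by length and depth (the submitters' processing notes also list CASAVA 1.4; other versions are not given in the sources used here). The study calls the 2 libraries of a group biological replicates, and how their embryos were collected is not given further.

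FPKM was multiplied by the exon length of GENCODE M21 (GRCm38), which gave whole multiples of the value of 1 read, and 97.0% to 97.8% of the values above 0 were separated into libraries. Rows on chromosomes 1 to 11 were present, the last in part. Libraries separated this way were compared as log2(FPKM + 1), for genes with at least 1 FPKM in either column, in pandas 2.3.3 and numpy 2.4.6 under Python 3.11.15, with intervals from scipy 1.17.1. The separation was tested on simulated data. Limits of 3 reads for a count of 0, and intervals, cover counting error only, since reads without molecular identifiers are not independent molecules. All 32 genes were described, grouped by role, and the members, lists and markers were chosen with earlier results of these data known. Pseudocounts of 0.1 and 5, no filter, a minimum of 5 FPKM, centring on all genes, each library left out and the names of the columns in the tables were tried as alternatives. Unused columns of single samples: 0.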

Additional observations from a re-analysis of the deposited data

Results flagged for a closer look

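Opposite directions at the late 2-cell and 4-cell stages brought up 5 genes, with the 4-cell columns named as in the tables of the study, where all library pairs of one stage lay on one side and all of the other stage on the other. The difference between the stages was not tested, and columns with 1 library were not considered. The share of all genes that meet this rule was not computed, so the number of 5 is no result about initiation factors. For FK866 over control, Eif2d had a log2 difference of -0.85 in late 2-cell and 0.44 in 4-cell embryos. Eif3i, a subunit of eIF3, had -0.48 and 0.44. For FK866+NMN over FK866, Eif3m had -1.44 and 0.51. Eif2a had -1.555 and 0.47, and Eif4g2 had -0.64 and 0.49.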

How the results depend on the processing

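No paired analysis was possible because the deposited values are 1 column per group and the libraries separated from them carry no replicate number. Depth limits genes with few reads, and columns with 1 library have no replicate check. With a pseudocount of 5 the number of the 32 genes past 2-fold for FK866+NMN over FK866 in late 2-cell embryos went from 13 to 7. Over all comparisons, 31 single-gene values that had passed 2-fold no longer did. The 287 values compared include those that were within 2-fold from the start. A pseudocount cannot change the direction of a difference, and leaving out the filter does not alter the value of a gene that passed it. For single genes neither is therefore a check.

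All values of this paragraph name the columns by their headers. Centring on all genes moved the median log2 difference from -0.18 to 0.066 for FK866+NMN over FK866 and from -0.42 to -0.065 for FK866+NMN over control in late 2-cell embryos, from 0.64 to 0.84 for late 2-cell to 4-cell control, from -1.20 to -1.63 for FK866 and from 0.30 to 0.60 for FK866+NMN over FK866 at the 4-cell stage, from 0.66 to 1.11 for TSA and from 0.58 to 0.86 for Sirt1. With a pseudocount of 5 the last 5 of these were 0.53, -0.92, 0.27, 0.52 and 0.55. With a pseudocount of 0.1, FK866+NMN over FK866 at the 4-cell stage was 0.31 and Sirt1 0.61. With a minimum of 5 FPKM they were 0.34 and 0.66, and TSA 0.77, and with no filter the former was 0.28.

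By the headers, leaving out each library in turn gave these ranges for the number past 2-fold and the median: early to late 2-cell 17 to 23 and 0.32 to 1.03, FK866 7 to 12 and -0.30 to -0.09, FK866+NMN over FK866 9 to 15 and -0.34 to -0.02, FK866+NMN over control 14 to 16 and -0.68 to -0.10, late 2-cell to 4-cell control 11 to 16 and 0.45 to 0.74, FK866 at the 4-cell stage 25 to 25 and -1.30 to -1.10, TSA 14 to 17 and 0.57 to 0.86, and Sirt1 14 to 16 and 0.55 to 0.70. These numbers do not show whether the same genes stayed past 2-fold. Whichever library was left out, 14 of 22 genes stayed from early to late 2-cell and 2 of 5 for FK866. For FK866+NMN 5 of 13 stayed over FK866 and 7 of 12 over control. For late 2-cell to 4-cell control 6 of 17 stayed, for TSA 10 of 16 and for Sirt1 8 of 15. For FK866 at the 4-cell stage 24 of 24 stayed, where only control libraries could be left out. Of single genes past 2-fold by the headers, Eif2ak3 changed sign for FK866 without FK866 library A and Eif4a3l2 for TSA without control library B, with ranges over the libraries left out of -0.042 to 1.83 and -2.65 to 0.21.

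Naming the 5 columns as in the tables of the study gave 3 genes in place of 24 for FK866 and 3 in place of 16 for FK866+NMN over FK866 at the 4-cell stage, and 6 in place of 15 for Sirt1, with medians of -0.082, 0.051 and -0.19, and of -0.66 for TSA. Single genes past 2-fold by the headers that changed sign had these log2 differences under those names. For FK866 at the 4-cell stage they were Eif5b 0.64, Eif3j1 0.21, Eif6 0.13, Eif2a 0.051, Eif4e 0.43, Eif2b4 0.24, Eif4e3 -2.08, Eif4a3l2 -1.16, Eif4a3l1 -1.65, Eif3f 0.38, Eif4ebp1 -0.29 and Eif4ebp2 0.34. For FK866+NMN over FK866 they were Eif3j1 -0.12, Eif2s2 -0.25, Eif6 -0.21, Eif5a2 0.12, Eif2b4 -0.034, Eif4h -0.21, Eif2ak1 0.16, Eif4a3l2 0.49, Eif4a3l1 1.04, Eif3c -0.019 and Eif3g -0.34. For TSA they were Eif3m -1.78, Eif2s2 -1.004, Eif4h -4.33, Eif3b -0.67, Eif4e3 0.85, Eif4a3l2 3.72, Eif4a3l1 3.09, Eif3c -4.01 and Eif4enif1 0.34. For Sirt1 they were Eif5a2 -0.76, Eif4h -1.24, Eif3b -0.019, Eif4e3 0.47, Eif4a3l2 0.68, Eif4a3l1 0.69, Eif3f -0.83, Eif3c -0.53 and Eif4ebp2 -0.15. Leaving out single libraries under those names was added after seeing the data, and 28 of 40 calls stayed past 2-fold in each case. This alternative compares other columns, and why headers and tables differ was not tested.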
